A study of Mus musculus with 16 samples.

Results

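Thyroid hormone and corticosteroids act on heart muscle cells through proteins that bring the hormone in, activate or destroy it, bind it in the nucleus and set the receptor's sensitivity. The 9 genes described here, of 39043 entries in the mouse total RNA table, cover these steps and were listed by symbol for their roles: Slc16a10, Dio2, Dio3, Thra, Thrb, Nr3c1, Nr3c2, Hsd11b1 and Fkbp5. All 9 symbols were found in the table, each through a mouse Ensembl identifier, and 8 of them had enough counts to be tested, Dio3 being the exception.

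RNA was compared among 3 cultures of cardiomyocytes derived from cardiac stem cells (iCMs), 2 samples of heart muscle cells isolated from adult mice (aCMs) and 3 cultures of the undifferentiated cardiac stem cells (CSCs). All came from C57BL/6 mice, named C57BL/6J in the methods, and no genetic change or transgene is stated for any of them. iCMs had spent 4 days as floating cardiospheres in the CSC growth medium. They were then differentiated, in serum-free StemPro-34 medium with BMP-4, Activin A, bFGF, Wnt11 and Wnt5a followed by DKK1, to day 14. aCMs were dissociated by collagenase perfusion and left to sediment, with 2 hearts pooled per sample, and the age of these mice is given as 10 weeks in the study's results and 12 weeks in its methods. CSCs were sorted as CD45-negative, CD31-negative and c-kit-positive cells from 12-week-old hearts. They were kept in growth medium with serum, B27 and N2 supplements, EGF, bFGF and LIF. The methods describe the cultures as replicates of 1 CSC clone, in which case the spread among them is not a spread among animals. B27 contains triiodothyronine and corticosterone, and no hormone concentration is given for any medium or animal in the files used here.

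Thyroid hormone enters cells through carriers such as MCT10, and deiodinases activate thyroxine to triiodothyronine or inactivate the hormone. It acts through nuclear receptors that bind DNA with or without ligand. Corticosteroids bind receptors held ready by heat shock proteins, and heart muscle has little of the enzyme that elsewhere keeps glucocorticoids off the mineralocorticoid receptor. Both hormones rise at some point between late gestation and the weeks after birth, a period in which heart muscle cells leave the fetal programme.

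Libraries held 11114519 to 63238429 counts, and aCMs, at 11114519 and 14589730 counts, and iCMs replicate 3, at 13417384, were the shallowest. Summed levels of 10 cardiomyocyte markers were 15640 to 23197 CPM (counts per 1000000 on scaled library totals) in iCMs, 193856 to 228964 CPM in aCMs and 54.3 to 121 CPM in CSCs. Markers of other cell types also differed: 10 endothelial markers summed to 1666 to 2049 CPM in iCMs, 1276 to 1681 CPM in aCMs and 10.1 to 16.0 CPM in CSCs, and 10 fibroblast markers to 4488 to 4701 CPM in iCMs, 370 to 623 CPM in aCMs and 6688 to 13625 CPM in CSCs. The fibroblast sum does not speak for each of its genes, since 6 of the 10 were called higher and 3 lower in iCMs than in CSCs (median log2 change 3.75), 8 higher in iCMs than in aCMs (2.49), and 5 higher and 4 lower in aCMs than in CSCs (1.62). The 10 macrophage markers summed to 136 to 254 CPM in iCMs, 96.9 to 197 CPM in aCMs and 10.1 to 35.6 CPM in CSCs. For 9 erythroid markers the sums were 6379 to 26216 CPM in iCMs, 38.1 to 73.0 CPM in aCMs and 2.97 to 6.53 CPM in CSCs. For 10 lymphocyte markers they were 36.6 to 152 CPM in iCMs, 7.50 to 9.90 CPM in aCMs and 1.22 to 2.02 CPM in CSCs, and for 10 mesothelial markers 400.1 to 721 CPM in iCMs, 24.2 to 29.0 CPM in aCMs and 197 to 222 CPM in CSCs. The mesothelial sum does not speak for each of its genes either. Of the 10, 8 were called higher in iCMs than in CSCs (median log2 change 6.25) and 9 higher in iCMs than in aCMs (5.40). In aCMs against CSCs 4 were higher and 2 lower (0.99), and Msln alone averaged 189 CPM in CSCs. Kit, which encodes the receptor CSCs were sorted on, was at 39.6 to 45.0 CPM in iCMs and 6.76 and 9.80 CPM in aCMs, against 0 to 0.0836 CPM in CSCs, so the sort marker was all but absent from the CSC libraries. Eif2s3y, a gene of the Y chromosome, was at 29.6 to 33.7 CPM in the iCMs, 0.263 CPM in aCMs replicate 1, 84.8 CPM in aCMs replicate 2 and 0.106 to 0.168 CPM in the CSCs. The iCM and CSC libraries therefore differed in a Y chromosome transcript although the iCMs are described as derived from the CSC clone, and the 2 aCM libraries differed in it too. Group and source of cells cannot be told apart in the comparison of iCMs and CSCs. In such bulk samples, fewer cells of a type and less RNA per cell cannot be told apart.

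Among the 9 genes 3 patterns were seen, which overlap in Slc16a10 and leave out Thra, Nr3c1 and Dio3. Slc16a10, Dio2, Hsd11b1 and the receptor gene Thrb were higher in iCMs than in CSCs. This does not hold for all deiodinases, since Dio1, outside the 9 genes, was lower in iCMs than in CSCs by under 2.5-fold. Nr3c2 and Slc16a10 were lower in iCMs than in aCMs. Fkbp5 was far lower in aCMs than in either culture. A gene was called at an adjusted p below 0.05, over all 20254 genes tested by edgeR's quasi-likelihood test, with a change of at least 2.5-fold. By that rule 4 of the 8 tested genes were higher in iCMs than in CSCs, where 22.0% of all tested genes were, and 0 were lower, where 7.16% were. At an unadjusted p below 0.05, edgeR placed 1 of the 8 lower (Nr3c1), and DESeq2 called 0 lower. In iCMs against aCMs 1 was higher and 2 were lower, beside 19.6% and 15.3% of all tested genes. In aCMs against CSCs 5 were higher and 1 was lower, beside 24.2% and 20.4%. Without regard to a test, all iCM libraries lay above all CSC libraries for 5 of the 8 genes and below for 1, beside 30.4% and 27.5% of all tested genes, above all aCM libraries for 3 and below for 3, beside 40.9% and 33.1%, and all aCM libraries lay above all CSC libraries for 5 and below for 1, beside 34.8% and 37.4%. The median log2 change of the 8 genes was 1.28, -0.26 and 2.18 in these comparisons in that order, and of all tested genes -0.02, 0.19 and -0.10.

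**Figure D1:**
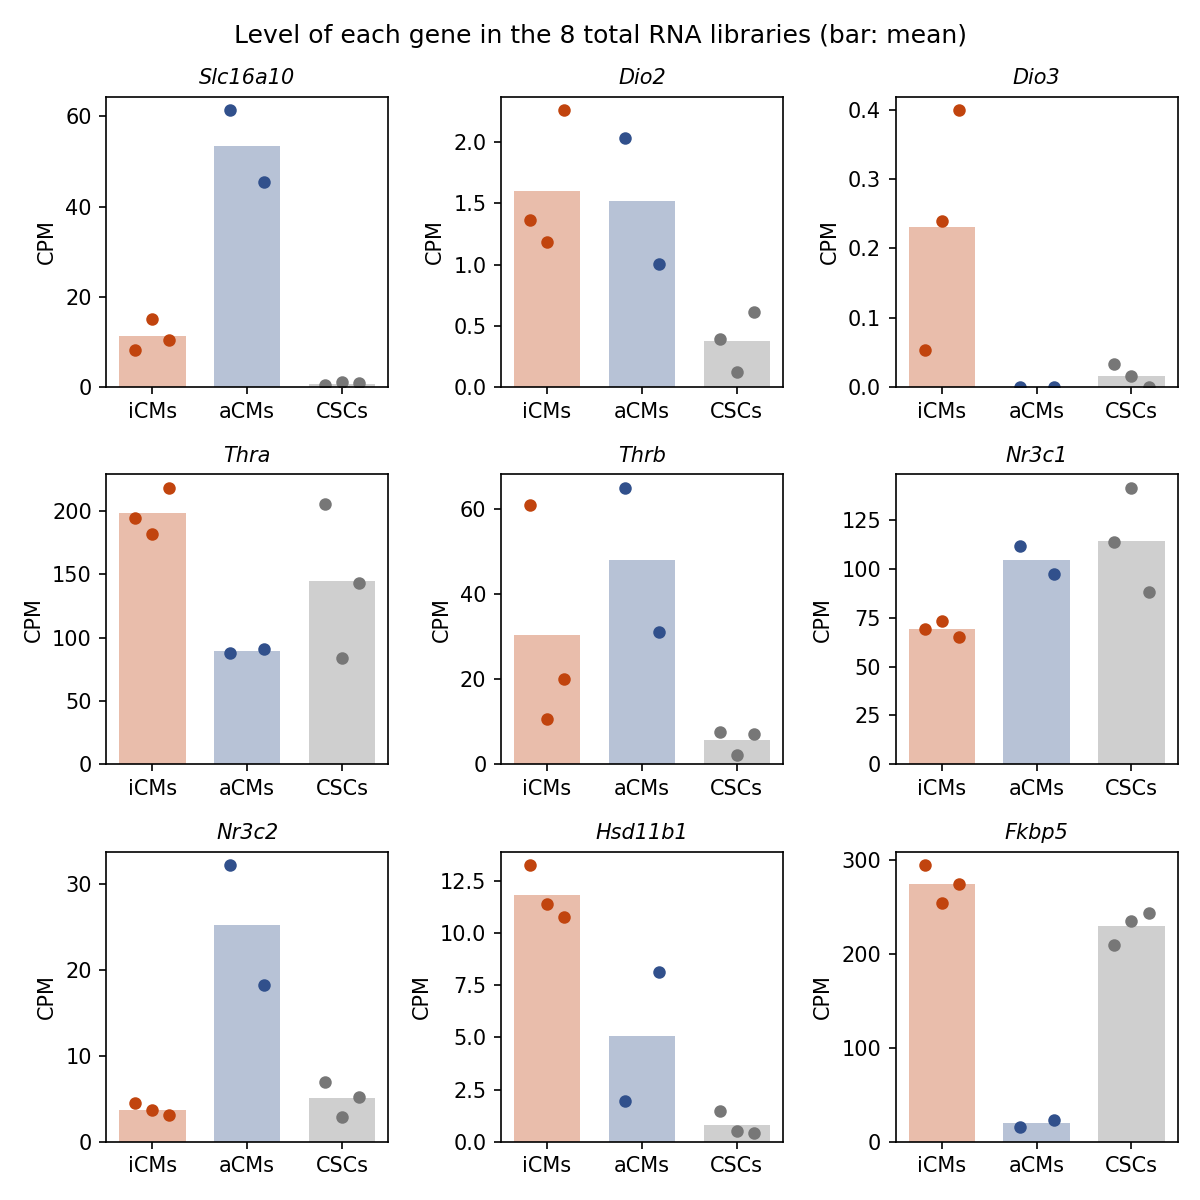
Level of each of the 9 genes in CPM (linear axes from 0, a scale of its own for each gene) in 3 iCM, 2 aCM and 3 CSC libraries, where points are libraries and bars are group means. Fkbp5 lies at 255 to 295 CPM in iCMs and 16.1 to 23.7 CPM in aCMs, and Slc16a10 and Nr3c2 have their highest points in aCMs.

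The promoters of the 4 genes called higher in iCMs than in CSCs are printed side by side. These genes share that call but do not all rank the groups alike. The Thrb call was lost without iCMs replicate 1 and the Dio2 call without iCMs replicate 3. Each printed window is 300 bases, 250 before and 50 after the start listed by RefSeq on GRCm38.p6, read 5′ to 3′ on the gene's strand. They are Slc16a10 at chr10:40142205-40142504 (minus strand), Dio2 at chr12:90738989-90739288 (minus strand), the first of the 2 listed starts of Thrb at chr14:17660710-17661009 (plus strand) and Hsd11b1 at chr1:193242311-193242610 (minus strand). The Hsd11b1 window lies inside the span of that gene, chr1:193221640-193264045, and not at its upstream end, which was not searched. Capitals mark exact matches on either strand to the thyroid hormone response core AGGTCA, the corticosteroid response core TGTTCT, the cAMP response element TGACGTCA or the TATA box TATAAA.
Slc16a10: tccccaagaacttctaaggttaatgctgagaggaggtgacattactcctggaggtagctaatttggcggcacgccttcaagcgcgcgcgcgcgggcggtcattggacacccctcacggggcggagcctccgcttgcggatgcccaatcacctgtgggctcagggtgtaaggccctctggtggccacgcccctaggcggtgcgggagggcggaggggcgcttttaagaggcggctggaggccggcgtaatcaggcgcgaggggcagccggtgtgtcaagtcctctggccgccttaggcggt
Dio2: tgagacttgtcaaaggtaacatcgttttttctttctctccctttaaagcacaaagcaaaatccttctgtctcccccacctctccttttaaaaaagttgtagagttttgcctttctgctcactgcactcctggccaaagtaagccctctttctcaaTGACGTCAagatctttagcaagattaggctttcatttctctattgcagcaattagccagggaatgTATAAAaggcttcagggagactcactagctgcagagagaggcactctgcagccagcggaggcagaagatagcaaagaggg
Thrb: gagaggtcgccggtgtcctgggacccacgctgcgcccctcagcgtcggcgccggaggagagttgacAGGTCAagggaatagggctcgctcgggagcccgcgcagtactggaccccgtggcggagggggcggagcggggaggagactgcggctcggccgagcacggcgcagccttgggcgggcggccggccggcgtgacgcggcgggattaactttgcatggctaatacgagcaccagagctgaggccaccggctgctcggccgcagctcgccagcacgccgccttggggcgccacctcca
Hsd11b1: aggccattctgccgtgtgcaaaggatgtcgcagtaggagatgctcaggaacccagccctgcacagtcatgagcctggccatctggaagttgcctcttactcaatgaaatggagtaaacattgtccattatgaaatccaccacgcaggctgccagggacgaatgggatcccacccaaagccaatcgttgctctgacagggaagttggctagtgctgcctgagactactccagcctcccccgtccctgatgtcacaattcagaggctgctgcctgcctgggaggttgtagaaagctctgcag

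These 4 windows were compared only in GC content and in the searched letters, and were not aligned with each other. The GC content was 65.3% for Slc16a10, 44.7% for Dio2, 72.7% for Thrb and 54.7% for Hsd11b1. The Thrb window held 1 AGGTCA, at positions -184 to -179 from the start, a core found in 16.3% of 32851 mouse promoters of that length. The Dio2 window held TGACGTCA at -95 to -88, a match present in 1.79% of promoters, and TATAAA at -30 to -25, present in 13.6%. TGTTCT, which 19.0% of promoters hold, was in none of the 4 windows, but the second listed start of Thrb (chr14:17981394-17981693, plus strand) held it 2 times. Paired forms were searched on both strands as well, AGGTCA followed after any 4 bases by AGGTCA, and AGAACA followed after any 3 bases by TGTTCT. They were in none of the windows of the 7 genes that had one and in 0.0152% and 0.00913% of all promoters. With shares so low, their absence here says little about hormone response. Slc16a10 and Hsd11b1 windows held none of the searched letters, and the Fkbp5 window (chr17:28486100-28486399, minus strand) held none either. The count table does not separate starts, so which start was in use was not measured.

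Slc16a10 had the largest change of the 8 tested genes between aCMs and CSCs. It encodes MCT10, a membrane carrier of aromatic amino acids and of thyroid hormones, and lies at chr10:40033532-40142270. Its level was 8.22, 15.0 and 10.4 CPM in iCMs, 61.4 and 45.5 CPM in aCMs and 0.448, 1.05 and 0.775 CPM in CSCs. The 3 groups did not overlap, and iCMs lay between the others. Slc16a10 was 14.8-fold higher in iCMs than in CSCs (log2 change 3.89, SE 0.37, adjusted p = 2.2e-05). Against aCMs it was lower in iCMs, by a log2 change of -2.25 (SE 0.36, adjusted p = 6.3e-04), and aCMs exceeded CSCs by 70.4-fold (log2 change 6.14, SE 0.42, adjusted p = 1.1e-06). All 3 calls held under every alternative run.

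Dio2 and Dio3, the deiodinases, were both scarce. Dio2 encodes the enzyme that turns thyroxine into active triiodothyronine inside the cell, is known to be induced through cAMP, and lies at chr12:90724552-90739038. It was at 1.36, 1.19 and 2.26 CPM in iCMs, 2.04 and 1.01 CPM in aCMs and 0.389, 0.121 and 0.614 CPM in CSCs. iCMs and aCMs overlapped, and each lay above all CSC libraries. Dio2 was 4.32-fold higher in iCMs than in CSCs (log2 change 2.11, SE 0.62, adjusted p = 0.018) and 4.13-fold higher in aCMs than in CSCs (log2 change 2.05, SE 0.71, adjusted p = 0.030). These calls rested on 195 counts over all 8 libraries. The first was lost without iCMs replicate 3 (log2 change 1.83, adjusted p = 0.062), and the second without aCMs replicate 1 (1.38, adjusted p = 0.25), without CSCs replicate 1 (2.11, adjusted p = 0.055), with only the groups compared in the fit (2.01, adjusted p = 0.055) or on library totals (1.36, adjusted p = 0.12). Between iCMs and aCMs the difference was 0.07, with a 95% interval from -1.49 to 1.62, so differences inside that interval were not detectable here.

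Dio3, whose enzyme inactivates thyroid hormone, is an imprinted gene at chr12:110279230-110281097. It had 2, 6.5 and 6 estimated counts in iCMs, 0 in each aCM library and 2, 1 and 0 in CSCs. Over the pooled libraries, with counts rounded, 14 counts in iCMs against 3 in CSCs gave a ratio of 9.42 per count sequenced, with a 95% exact interval from 2.63 to 51.1 that covers counting error only. Against aCMs, 14 counts in iCMs and 0 in aCMs gave a ratio whose lower 95% exact limit was 0.755, so a difference was not detectable at this depth. The log2 ratio of Dio2 to Dio3 averaged 2.69 ± 0.80 in iCMs (SD, n = 3), 4.58 ± 0.77 in aCMs (n = 2) and 2.30 ± 1.10 in CSCs (n = 3), with Dio3 in aCMs set by the prior count alone. The exact two-sided permutation p was 0.6 for iCMs against CSCs, 0.2 for iCMs against aCMs and 0.2 for aCMs against CSCs. The other genes of its imprinted cluster were not scarce in iCMs. All 5 that were tested (Dlk1, Meg3, Rtl1, Rian and Mirg) were higher in iCMs than in CSCs and than in aCMs, beside 22.0% and 19.6% of all tested genes. Meg3, a maternally expressed non-coding RNA, averaged 120 CPM in iCMs, 12.2 CPM in aCMs and 0.397 CPM in CSCs. Dlk1, which encodes a Notch-like membrane protein of fetal tissues, averaged 87.5 CPM in iCMs, 0.239 CPM in aCMs and 0.0404 CPM in CSCs.

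Dio1 encodes the third deiodinase, known from liver and kidney and itself induced by thyroid hormone. It was at 5.66, 3.26 and 3.52 CPM in iCMs, 0.131 and 0.0958 CPM in aCMs and 10.8, 10.0 and 9.70 CPM in CSCs. The groups did not overlap and the order was the reverse of that of Slc16a10. Dio1 was higher in iCMs than in aCMs (log2 change 5.18, SE 0.58, adjusted p = 7.3e-05), where aCMs had 1 count in each library and the pooled ratio was 40.1 with a 95% exact counting interval from 11 to 332, and lower in aCMs than in CSCs (-6.47, SE 0.58, adjusted p = 7.1e-06). Between iCMs and CSCs it differed by -1.29 (SE 0.31, adjusted p = 0.0065), which is under 2.5-fold but became a call without iCMs replicate 1 (-1.57, adjusted p = 0.0069) or without CSCs replicate 3 (-1.32, adjusted p = 0.014).

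Thra and Thrb, the receptors, differed in their pattern. Thra encodes the receptor that predominates in heart muscle and also a splice form that binds no hormone, and lies at chr11:98740776-98769006. Its level was 195, 182 and 218 CPM in iCMs, 87.7 and 91.0 CPM in aCMs and 205, 84.1 and 143 CPM in CSCs. CSCs varied most and overlapped both other groups. iCMs lay above aCMs without overlap, by 2.22-fold (log2 change 1.15, SE 0.32, adjusted p = 0.014), which is short of 2.5-fold and became a call on library totals (1.86, adjusted p = 0.0015). Thra did not pass between iCMs and CSCs (0.46, 95% interval from -0.16 to 1.07, adjusted p = 0.19) or between aCMs and CSCs (-0.69, 95% interval from -1.39 to 0.01, adjusted p = 0.083), and the last became a call on library totals (-1.37, adjusted p = 0.0057). The splice forms were not separated.

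The end of Thra overlaps that of Nr1d1, a clock repressor read from the opposite strand, and no source used here states that counting used strand, so reads of the overlap may have been split between them. Nr1d1 was at 59.1, 56.1 and 66.0 CPM in iCMs, 79.6 and 142 CPM in aCMs and 28.2, 26.0 and 21.6 CPM in CSCs. Its order was aCMs, iCMs and CSCs without overlap, unlike that of Thra. The log2 change of Nr1d1 was 1.26 in iCMs against CSCs (SE 0.23, adjusted p = 0.0014) and -0.88 in iCMs against aCMs (SE 0.25, adjusted p = 0.015), both short of 2.5-fold, and 2.13 in aCMs against CSCs (SE 0.25, adjusted p = 4.8e-05), a call. The first became a call with the stricter filter on low counts (1.33, adjusted p = 8.5e-04) and without CSCs replicate 1 (1.35, adjusted p = 0.0027).

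Thrb encodes the beta receptor, which in mice mediates feedback in the pituitary and is the minor form in heart, and spans chr14:17659225-18040097. Its level was 60.8, 10.6 and 20.0 CPM in iCMs, 64.9 and 31.2 CPM in aCMs and 7.70, 2.30 and 7.18 CPM in CSCs. Each iCM and aCM library lay above each CSC library, while iCMs and aCMs overlapped, and iCMs replicate 1 stood apart from the other iCMs. Thrb was 5.36-fold higher in iCMs than in CSCs (log2 change 2.42, SE 0.66, adjusted p = 0.013), and without iCMs replicate 1 the change was 1.44 with an adjusted p of 0.064. That library also had the lowest summed erythroid markers of the iCMs, at 6379 CPM, against 25797 and 26216 CPM in the other iCMs. Its cardiomyocyte, endothelial and macrophage sums were the lowest of the iCMs too, at 15640, 1666 and 136 CPM. Its fibroblast sum was the highest, at 4701 CPM, and its lymphocyte and mesothelial sums lay between those of the other iCMs. The part of these differences in the result was not tested. Thrb was 8.40-fold higher in aCMs than in CSCs (log2 change 3.07, SE 0.71, adjusted p = 0.0041). Between iCMs and aCMs the change was -0.65, with a 95% interval from -2.19 to 0.90, and its direction turned on library totals (0.10) and without aCMs replicate 1 (0.01).

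The balance of the 2 receptors was described by the log2 ratio of Thrb to Thra CPM in each library, which is not corrected for transcript length and so is read only between groups. It was -1.68, -4.08 and -3.44 in iCMs, -0.43 and -1.54 in aCMs and -4.72, -5.15 and -4.31 in CSCs. The ratio lay higher in every aCM library than in every CSC library, by 3.74, and higher in every iCM library than in every CSC library, by 1.66, while iCMs and aCMs overlapped. By an exact two-sided permutation test over libraries, p was 0.1 for each of these 2 differences and 0.2 for iCMs against aCMs (0.225, 0.225 and 0.257 after Benjamini-Hochberg adjustment over 9 ratio comparisons). The smallest p that 3 against 3 or 3 against 2 libraries can give is 0.1, so none could pass 0.05.

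**Figure D2:**
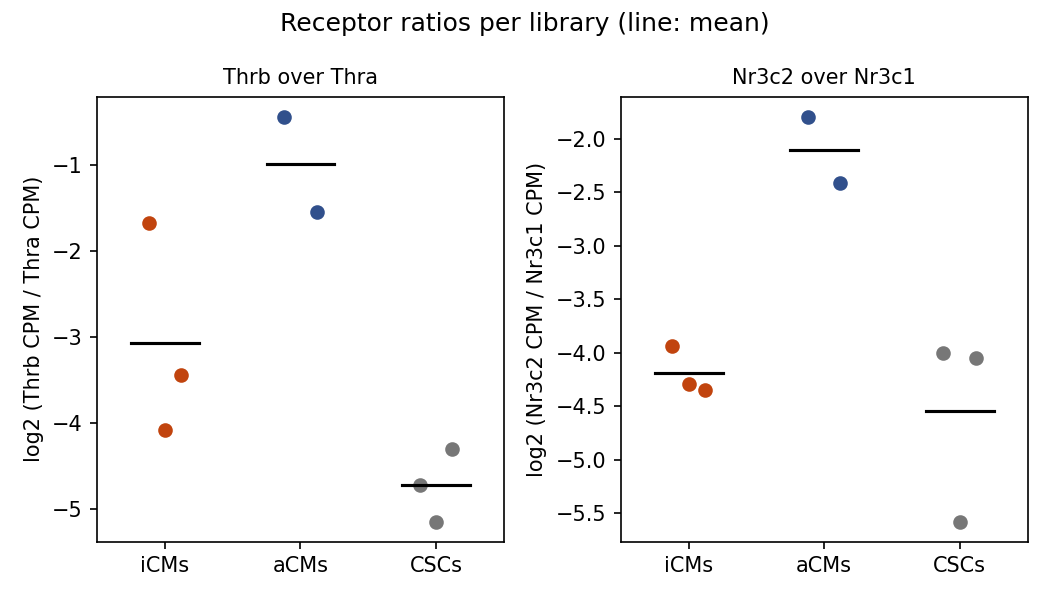
Log2 ratio of Thrb to Thra CPM (left) and of Nr3c2 to Nr3c1 CPM (right) in each library of iCMs, aCMs and CSCs, where points are libraries and lines are group means. The aCM means, -0.99 for the thyroid hormone receptors and -2.10 for the corticosteroid receptors, are the highest of the 3 groups in both panels.

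Nr3c1 encodes the glucocorticoid receptor, the receptor for corticosterone at high levels, and lies at chr18:39410545-39519421. Its level was 69.3, 73.3 and 64.8 CPM in iCMs, 111 and 97.3 CPM in aCMs and 113, 141 and 88.0 CPM in CSCs. All iCM libraries lay below all others, while aCMs and CSCs overlapped. The differences were small: the log2 change was -0.72 in iCMs against CSCs (SE 0.19, adjusted p = 0.011) and -0.59 in iCMs against aCMs (SE 0.21, adjusted p = 0.040), both under 2.5-fold, and the second turned to 0.12 on library totals. Between aCMs and CSCs it was -0.13, with a 95% interval from -0.61 to 0.35.

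Nr3c2 encodes the mineralocorticoid receptor, which in heart muscle can bind aldosterone and glucocorticoids, and lies at chr8:76898083-77245012. Its level was 4.48, 3.66 and 3.13 CPM in iCMs, 32.1 and 18.2 CPM in aCMs and 7.01, 2.90 and 5.26 CPM in CSCs. aCMs lay above every other library, and iCMs lay within the span of CSCs. Nr3c2 was lower in iCMs than in aCMs, by a log2 change of -2.73 (SE 0.41, adjusted p = 4.6e-04), and 4.97-fold higher in aCMs than in CSCs (2.31, SE 0.41, adjusted p = 7.5e-04), calls that held under every alternative run. iCMs did not pass against CSCs (-0.42, 95% interval from -1.24 to 0.40, adjusted p = 0.37).

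The log2 ratio of Nr3c2 to Nr3c1 CPM was -3.94, -4.29 and -4.35 in iCMs, -1.79 and -2.41 in aCMs and -4.00, -5.58 and -4.05 in CSCs. Both aCM libraries lay above all others, by 2.09 on average over iCMs and 2.44 over CSCs. The exact two-sided permutation p was 0.1 for each, the smallest possible (0.225 after adjustment over the 9), and 0.8 for iCMs against CSCs, where the difference was 0.35. Hsd11b2, whose enzyme shields this receptor from glucocorticoids in kidney, had 16 counts over the iCMs, 3 over the aCMs and 11 over the CSCs. The groups differed in depth, and pooled levels were 0.202, 0.166 and 0.0688 CPM in that order. The pooled ratio of iCMs to aCMs was 1.21, with a 95% exact counting interval from 0.347 to 6.50. That of aCMs to CSCs was 2.42 (0.433 to 9.15), so neither difference was detectable at this depth. For iCMs against CSCs the ratio was 2.93 (1.28 to 6.99). These intervals cover counting error only.

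Hsd11b1 encodes the enzyme that regenerates active corticosterone from its inert form inside cells and spans chr1:193221640-193264045. Its level was 13.2, 11.4 and 10.8 CPM in iCMs, 1.97 and 8.15 CPM in aCMs and 1.47, 0.534 and 0.409 CPM in CSCs. The 3 groups did not overlap, with iCMs highest, but the 2 aCM libraries differed widely from each other. Hsd11b1 was 14.4-fold higher in iCMs than in CSCs (log2 change 3.85, SE 0.61, adjusted p = 6.7e-04), a call that held under every alternative run. It was 6.27-fold higher in aCMs than in CSCs (2.65, SE 0.64, adjusted p = 0.0050), which was lost without aCMs replicate 2 (1.22, adjusted p = 0.20). Between iCMs and aCMs the change was 1.20 (95% interval from -0.24 to 2.64, adjusted p = 0.15), and it became a call without aCMs replicate 2 (2.60, adjusted p = 0.034) and on library totals (1.90, adjusted p = 0.036). aCMs replicate 2 had the higher summed fibroblast markers, 623 against 370 CPM in replicate 1, and the higher macrophage markers, 197 against 96.9 CPM. It also had the higher endothelial markers, 1681 against 1276 CPM, and the higher Eif2s3y, 84.8 against 0.263 CPM. Its cardiomyocyte, erythroid and lymphocyte sums were lower than those of replicate 1. The part of these differences in the level of Hsd11b1 was not tested. In iCMs against CSCs the sums of cardiomyocyte, endothelial, macrophage, erythroid, lymphocyte and mesothelial markers were higher too, as were 6 of 10 fibroblast markers although their sum was lower, and the part of these in the result was not tested. H6pd, which supplies the cofactor of this enzyme in the endoplasmic reticulum, averaged 67.7 CPM in iCMs, 66.2 CPM in aCMs and 36.2 CPM in CSCs, with a log2 change of 0.90 in iCMs against CSCs (SE 0.18, adjusted p = 0.0026), under 2.5-fold.

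Fkbp5 encodes a co-chaperone that lowers the affinity of the glucocorticoid receptor and is itself a direct target of that receptor, and lies at chr17:28398753-28486149. Its level was 295, 255 and 275 CPM in iCMs, 16.1 and 23.7 CPM in aCMs and 210, 236 and 244 CPM in CSCs. Both aCM libraries lay far below all cultures, and iCMs lay just above CSCs without overlap. Fkbp5 was 13.8-fold higher in iCMs than in aCMs (log2 change 3.78, SE 0.24, adjusted p = 3.4e-06), and lower in aCMs than in CSCs (-3.52, SE 0.24, adjusted p = 9.8e-07), and both calls held under every alternative run. iCMs differed from CSCs by 0.26 (95% interval from -0.14 to 0.66, adjusted p = 0.25).

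Fkbp4, the co-chaperone that replaces the product of Fkbp5 on the receptor when hormone binds, had the opposite order. It was at 130, 128 and 145 CPM in iCMs, 866 and 757 CPM in aCMs and 163, 297 and 266 CPM in CSCs. Both aCM libraries lay above every culture, and iCMs lay below CSCs. Fkbp4 was lower in iCMs than in aCMs (-2.60, SE 0.25, adjusted p = 3.2e-05) and 3.35-fold higher in aCMs than in CSCs (1.74, SE 0.25, adjusted p = 1.9e-04), the second call being lost on library totals (1.09). In iCMs against CSCs it changed by -0.85 (SE 0.23, adjusted p = 0.011), under 2.5-fold.

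**Figure D3:**
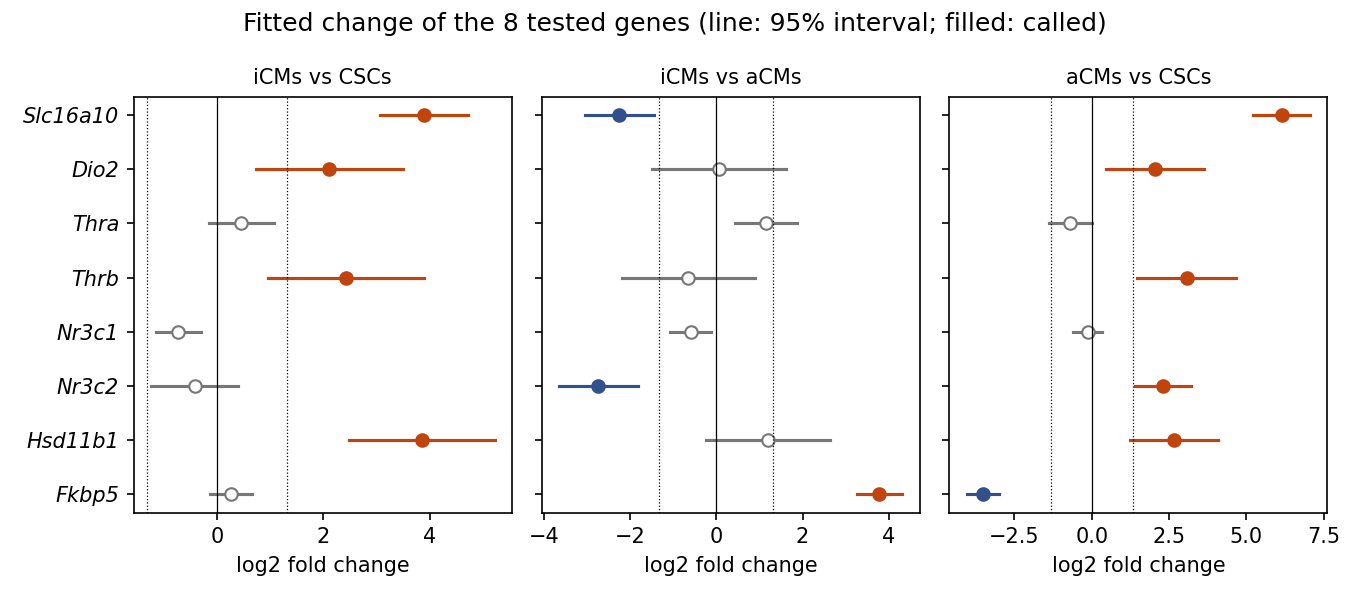
Fitted log2 fold change of the 8 tested genes in each comparison (first group over second), where lines are 95% intervals, filled points are called genes, open points are genes not called and dotted lines mark 2.5-fold. Slc16a10 (3.89) and Hsd11b1 (3.85) have the largest changes in iCMs against CSCs, and Fkbp5 (3.78) and Nr3c2 (-2.73) in iCMs against aCMs.

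Genes around these 9 were taken from lists by role and are given as counts. Of all tested genes, 22.0% were called higher and 7.16% lower in iCMs than in CSCs. The shares were 19.6% and 15.3% in iCMs against aCMs, and 24.2% and 20.4% in aCMs against CSCs. Of 11 tested genes of thyroid hormone transport, metabolism and binding, which include Slc16a10 and Dio2, 7 were higher in iCMs than in CSCs. In iCMs against aCMs 5 were higher and 1, Slc16a10, was lower. In aCMs against CSCs 5 were higher and 3 lower. The list medians were 3.89, 1.48 and 2.27. Slc7a8, an amino acid carrier that can move thyroid hormone, averaged 3.52 CPM in iCMs, 2.75 CPM in aCMs and 0.0345 CPM in CSCs.

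Among 14 partners of the thyroid hormone receptors, the retinoid X receptors, corepressors and coactivators, 1 was called in iCMs against CSCs, 1 in iCMs against aCMs and 2 in aCMs against CSCs. Rxrg, a retinoid X receptor of muscle that pairs with thyroid hormone receptors, was called in each. It was at 1.32, 1.07 and 0.815 CPM in iCMs, 96.8 and 100.4 CPM in aCMs and 0.106, 0.0637 and 0.124 CPM in CSCs. The groups did not overlap, and aCMs stood far above both cultures. Rxrg was 11.8-fold higher in iCMs than in CSCs (3.56, SE 0.32, adjusted p = 1.5e-05), lower in iCMs than in aCMs (-6.49, SE 0.28, adjusted p = 8.1e-07) and higher in aCMs than in CSCs (10.06, SE 0.34, adjusted p = 1.3e-08). The coactivator Ncoa1 was higher in aCMs than in CSCs, at 31.1 against 5.98 CPM on average. The list medians were -0.60, -0.42 and -0.17, and Hdac3, a histone deacetylase of the corepressor complex, changed by -1.16 in iCMs against CSCs (SE 0.15, adjusted p = 2.2e-04), under 2.5-fold.

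Genes that thyroid hormone is known to induce in heart or other tissues ranked for most members with aCMs first, iCMs between and CSCs last. Of 14, 8 were higher in iCMs than in CSCs (median 3.47), 11 were lower and 1 higher in iCMs than in aCMs (median -2.98), and 12 were higher and 1 lower in aCMs than in CSCs (median 7.79). Myh6, the alpha myosin heavy chain, averaged 3405 CPM in iCMs, 76748 CPM in aCMs and 5.69 CPM in CSCs, and Slc2a4, the insulin-responsive glucose carrier, 18.4 CPM in iCMs, 930.1 CPM in aCMs and 0.650 CPM in CSCs. The exception in both comparisons with aCMs was Dio1. Most genes that thyroid hormone represses in heart, a list that includes Thra, moved the same way. Of 6, 4 were higher in iCMs than in CSCs, 4 lower in iCMs than in aCMs and 5 higher in aCMs than in CSCs. Pln, the inhibitor of the calcium pump, averaged 826 CPM in iCMs, 7870.0 CPM in aCMs and 0.715 CPM in CSCs. Myh7, the beta myosin heavy chain, was at 1421 CPM in iCMs and 1386 CPM in aCMs (0.04, 95% interval from -0.89 to 0.96) while Myh6 differed by -4.49 (SE 0.36, adjusted p = 1.0e-05). Many genes of both lists are also contractile, ion transport or metabolic genes of heart muscle, and Myh6 and Pln are also in the list of cardiomyocyte markers, whose sum moved the same way. The part of muscle content in these counts was not tested.

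Of 20 glucocorticoid response genes, 13 were higher in iCMs than in CSCs (median 2.08). In iCMs against aCMs 7 were higher and 3 lower (median 1.19), and in aCMs against CSCs 6 were higher and 5 lower (median 0.06). Tsc22d3, the glucocorticoid-induced leucine zipper, averaged 333 CPM in iCMs, 159 CPM in aCMs and 69.9 CPM in CSCs (2.25 in iCMs against CSCs, SE 0.15, adjusted p = 2.1e-06). Zbtb16, a zinc finger factor induced by glucocorticoids, had another order, at 23.6 CPM in iCMs, 102 CPM in aCMs and 0.352 CPM in CSCs, and Glul, glutamine synthetase, was at 788 CPM in iCMs, 953 CPM in aCMs and 48.8 CPM in CSCs. Errfi1 and Cebpd, which also answer growth factor and inflammatory signals, were higher in iCMs than in aCMs, with log2 changes of 3.97 (SE 0.40, adjusted p = 3.7e-05) and 3.72 (SE 0.38, adjusted p = 4.4e-05). Fkbp5 belongs to this list and, in aCMs, had the opposite direction to Zbtb16 and Glul. Sums of endothelial, macrophage, lymphocyte and erythroid markers were also higher in iCMs than in CSCs. The part of these cells in the counts was not tested.

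Of 9 tested genes that mineralocorticoids are known to induce in heart or kidney, 3 of them also in the glucocorticoid list, 7 were higher in iCMs than in CSCs (median 2.03). In iCMs against aCMs 5 were higher and 1 lower (median 1.83), and in aCMs against CSCs 2 were higher (median 0.09). Lcn2, a secreted siderophore-binding protein that is also an inflammatory marker, averaged 385 CPM in iCMs, 3.02 CPM in aCMs and 8.28 CPM in CSCs. The level of Nr3c2 itself was highest in aCMs. The part of cell content in these counts was not tested.

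Of 10 tested steroid enzymes and transporters, 3 were higher and 1 lower in iCMs than in CSCs, 2 higher and 1 lower in iCMs than in aCMs, and 2 higher and 2 lower in aCMs than in CSCs (medians 0.68, 0.45 and -0.10). Hsd11b1 was among the 3, and the gene lower in iCMs than in CSCs was Akr1c14, which inactivates steroids, with a change of -1.33 (SE 0.19, adjusted p = 3.7e-04) that fell short of 2.5-fold with DESeq2 (-1.30) and under 9 other alternatives. Abcb1a, an efflux pump that exports corticosteroids, averaged 7.69 CPM in iCMs, 35.5 CPM in aCMs and 2.47 CPM in CSCs and was called in iCMs against aCMs (-2.20, SE 0.39, adjusted p = 0.0013) and in aCMs against CSCs (3.83, SE 0.41, adjusted p = 2.7e-05). Of 15 chaperones of corticosteroid receptors, which include Fkbp5 and Fkbp4, 1 was higher in iCMs than in CSCs. In iCMs against aCMs 4, Fkbp5 among them, were higher and 1, Fkbp4, was lower. In aCMs against CSCs 2, Fkbp4 among them, were higher and 3, Fkbp5 among them, were lower. The list medians were -0.19, -0.28 and 0.10. The gene higher in iCMs than in CSCs was Hspa1a, a stress-induced heat shock protein, at 87.5 against 0.221 CPM on average.

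**Figure D4:**
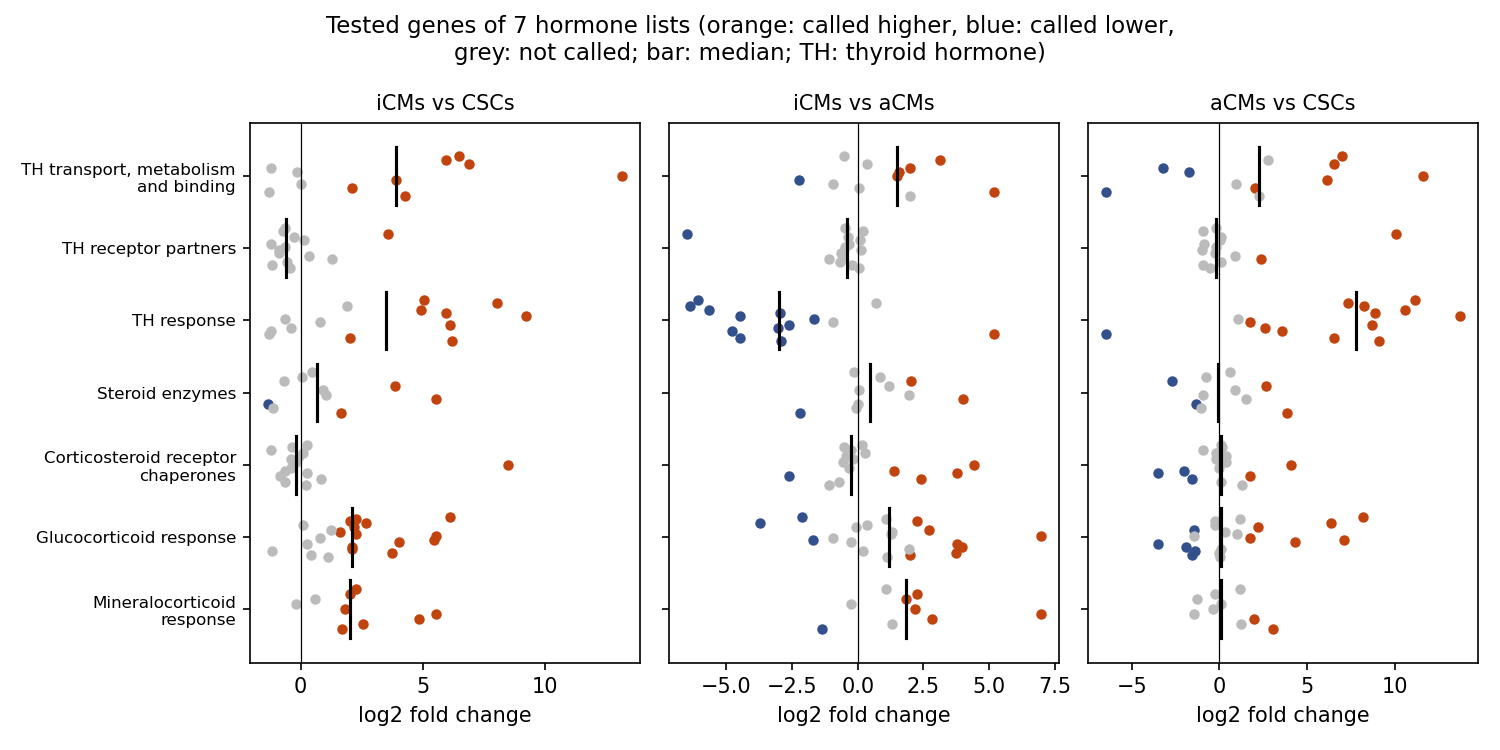
Log2 fold change (horizontal axis) of every tested gene in 7 hormone lists (rows) in the 3 comparisons, where orange points were called higher, blue points called lower, grey points not called and bars are list medians. The row of thyroid hormone response genes has a median of 3.47 in iCMs against CSCs and -2.98 in iCMs against aCMs, and the row of receptor partners has medians of -0.60, -0.42 and -0.17 with Rxrg standing apart.

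The genes most alike to each of the 8 across the 8 libraries, by Pearson correlation of log2 CPM among 12906 genes with a mean log2 CPM of at least 1, are given as a description, since points of a group share treatment and depth. For Fkbp5 the closest was Dok1 (r = 0.998), then Sox9 and Fetub. For Nr3c2 it was Tmem218 (r = 0.998), then Mettl7a1 and Slc46a3. For Slc16a10 it was Proser2 (r = 0.997), then Eif4e3 and 9330158H04Rik. These 3 genes have large steps between groups, and a correlation this high was common for Fkbp5 and Slc16a10, with 31 and 36 genes above 0.99. The others had none above 0.99: Thra was closest to Chst15 (r = 0.988), Nr3c1 to Arhgap35 (r = 0.988), Hsd11b1 to Ubald1 (r = 0.988), Dio2 to Selenok (r = 0.983) and Thrb to Tspan12 (r = 0.979).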

How the data were processed

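Total RNA was sequenced in 8 libraries. According to the study's methods and the labels, the authors depleted ribosomal RNA, sequenced read pairs, aligned them in Strand NGS to the mm10 mouse genome with Ensembl transcripts and deposited estimated counts per gene, of which 51.3% of values were not whole. Whether counting used strand is not given in the sources used here. The libraries are said to have been prepared in 2 groups, and which was which is not given, so preparation and cell type cannot be told apart. The small RNA tables were not used here.

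Estimated counts were rounded and tested with edgeR 4.0.16 in R 4.3.3 (TMM scaling, filterByExpr, quasi-likelihood test, all libraries in 1 fit, Benjamini-Hochberg adjustment over the 20254 genes tested). A call needed an adjusted p below 0.05 and a change of at least 2.5-fold, the fold threshold of the study. CPM are counts per 1000000 on TMM-scaled totals and are not corrected for gene length. For ratios a prior count of 2 was added. The script was tested on simulated data. Entries outside the annotation, 956, took 0.147% of counts and entered the fit. No 2 libraries had equal values beyond 0.408% of genes. Alternatives tried were a DESeq2 1.42.0 Wald test, median-of-ratios scaling within edgeR, unscaled totals, 2 other filters, only the groups compared, a replicate block, either threshold alone, other prior counts and leaving out each library.

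The 9 genes and the 18 lists beside them were chosen with earlier results of these data known. Named are the 9 genes, up to 4 tested genes of each list with the smallest p in a comparison, the 3 genes most alike to each member and overlapping genes. Hsd11b2, Eif2s3y and the values of genes in comparisons outside that rule were chosen after they were seen. Same-numbered cultures were not treated as pairs, since no label says that a number marks a shared day. Results for some genes of the lists are not reported here.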

Additional observations from a re-analysis of the deposited data

How the results depend on the processing

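Library totals in place of TMM moved the median log2 change of all tested genes to 0.89 in iCMs against aCMs and -0.76 in aCMs against CSCs, so levels against aCMs depend on scaling. On library totals 3 of the 8 tested genes were higher in iCMs than in aCMs and 2 lower in aCMs than in CSCs, all genes called were 6706 higher and 1754 lower in iCMs than in aCMs and 6695 lower in aCMs than in CSCs (3972, 3097 and 4140 by TMM), and Thrb (0.10) and Nr3c1 (0.12) turned direction in iCMs against aCMs. With the adjusted p alone, 1 of the 8 (Nr3c1) was lower in iCMs than in CSCs, 2 were higher in iCMs than in aCMs, and 4440 genes, not 1451, were lower in iCMs than in CSCs. Replicate block: the fit changed no count of calls among the 8 (4 higher in iCMs than in CSCs) and gave 4383 genes higher and 1312 lower in iCMs than in CSCs. Same-numbered iCM and CSC libraries correlated at 0.03, 0.15 and 0.07 in their deviations, and differently numbered ones at -0.115 to 0.067. For each iCM library the highest value was with the same-numbered CSC library, by little for iCMs replicate 3 (0.071 against 0.067). These low values do not settle whether the numbers mark pairs. No label says so, and the main fit left the number out. Under the block Dio2 in iCMs against aCMs turned to -0.25, and Dio1 in iCMs against CSCs became a call (-1.34, adjusted p = 0.0088).

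Leaving out each library gave 3 to 5 of the listed genes higher in iCMs than in CSCs, 1 to 2 higher in iCMs than in aCMs (2 without aCMs replicate 2) and 4 to 5 higher in aCMs than in CSCs. Of all genes, 3900 to 4692, 3009 to 4121 and 4417 to 4951 were called higher in these comparisons in that order. Some values without a call turned direction. Dio2 in iCMs against aCMs was -0.39 to 0.75 over these fits, Thrb there -1.66 to 0.010, Nr3c1 in aCMs against CSCs -0.28 to 0.057, Myh7 in iCMs against aCMs -0.45 to 0.32 (-0.0097 with the stricter filter) and H6pd there -0.18 to 0.36 (-0.011 with the stricter filter). The Dio2 to Dio3 log2 ratio of iCMs less that of CSCs, 0.38 in all libraries, was -0.48 with a prior count of 0.5 and -0.14 to 0.95 without single libraries, and the Nr3c2 to Nr3c1 difference was -0.17 to 0.62. Depth limits Dio3 and Dio2 most, with 17.5 and 195 counts in all libraries.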
